A study of Glycine max with 4 samples.

Results

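Clustered bound sites are places where the protein encoded by the soybean locus GLYMA.08G357600 was recovered at several nearby positions of embryo chromatin. A bound site was a pair of peaks, one from each ChIP replicate, that covered at least 50% of each other on a chromosome. A site counted as clustered when the summit of another site lay at most 3000 bp away, and neighbours within that distance were chained into clusters. By this rule 1635 of 9806 shared sites, or 16.7% (exact Clopper-Pearson 95% interval 15.9 to 17.4%, counting error only), fell into 768 clusters. The spacing of summits chose the sites, so spacing and cluster size are given as descriptions without a test.

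Chromatin immunoprecipitation followed by sequencing (ChIP-seq) recovers DNA fragments crosslinked to a protein, and a peak is a stretch where such fragments pile up above the local background. Proteins that bind DNA usually recognise short sequences, and regulatory DNA often carries several such sequences close together, which can hold several copies of a protein or 1 copy at a time. Peak lists cannot tell these apart, because each peak sums over many cells. Early maturation is the stage at which the soybean embryo begins to lay down storage protein and oil.

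Embryos were dissected at the early maturation stage from seeds of 6 to 7 mm of cultivar Williams 82, the line behind the soybean reference genome. In the ChIP group (2 biological replicates), 1 ug of antibody to a peptide of the protein (residues 487 to 502) pulled down the chromatin. The input group (2 biological replicates) was chromatin without precipitation and was not analysed on its own here. Both groups are the same tissue, cultivar and stage, with no mutant or other antibody among the samples used here, so whether each peak marks binding of this protein was not tested.

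The authors' list of ChIP replicate 1 held 15774 peaks on the 20 chromosomes and that of replicate 2 held 10894. Library totals were not given with the lists. Depth at a summit is therefore given as the ChIP pileup, the number of fragments over it, which was recovered from the deposited values for 100% of peaks in each list. Its median over all peaks was 51 in both lists, and the highest values were 468 in replicate 1 and 434 in replicate 2. Sites are named by position, counting from 1, since neither the genome nor the gene models of that build were at hand. Genes near the sites and the sequences under them were not analysed here.

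Most clusters were pairs. Of the 768 clusters, 683 (88.9%) held 2 sites, 74 held 3, 8 held 4 and 3 held 5, and 0 held 6 or more. Clusters of 3 or more sites numbered 85 and contained 269 sites. From the first summit to the last, a cluster spanned a median of 1709.5 bp, with a range of 376 to 7810 bp. Without the demand that a peak be shared, replicate 1's list alone had 4054 clustered peaks (25.7%) and replicate 2's alone 2160 (19.8%).

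Within clusters there were 867 pairs of neighbouring sites, called neighbours here, with a median distance of 1593 bp between summits and 25 to 75% quantiles of 1111.5 and 2178.5 bp. Spacings were most frequent between 750 and 1750 bp, where each step of 250 bp held 103 to 112 neighbours. The number then fell to 57 between 2750 and 3000 bp. Past the limit it stayed near that level, at 46 to 68 per step between 3000 and 4000 bp. From 5000 to 10000 bp it averaged 43.6 per step. Nearer than 500 bp there were 11 neighbours and at 250 bp or less there were 0.

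**Figure D1:**
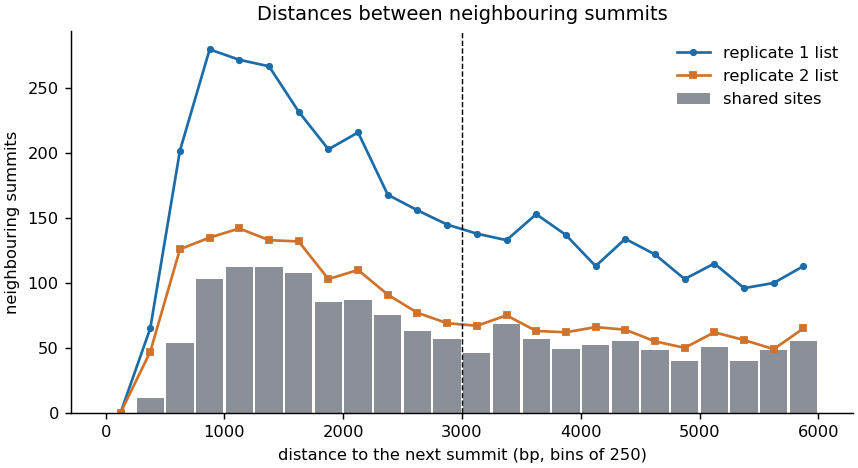
Distances between neighbouring summits, in steps of 250 bp, for shared sites (grey bars) and for the peaks of each single list (lines); the dashed line is the 3000 bp limit. Shared neighbours were most frequent between 750 and 1750 bp and fell to 57 just inside the limit, and the single lists were fullest at 750 to 1000 bp (280) and 1000 to 1250 bp (142).

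In the single lists the fullest step was 750 to 1000 bp in replicate 1, with 280 neighbours, and 1000 to 1250 bp in replicate 2, with 142. Between 500 and 750 bp there were 202 neighbours in replicate 1 and 126 in replicate 2, against 54 among shared sites. How close separate sites can stand depends on the width of the called peaks. Peaks of sites at most 750 bp from a neighbour had a median width of 364.5 bp (mean of both replicates), and between 750 and 1000 bp the median was 455 bp. The smallest stretch between the edges of neighbouring peaks came to 53 bp in replicate 1 and to 66 bp in replicate 2. Some close sites were joined in 1 list and separate in the other: 85 peaks of replicate 1, with a median width of 1042 bp, each overlapped 2 or more peaks of replicate 2. Of those 85 peaks, 18 belonged to a shared site and 4 to a clustered one. In the reverse case, 17 peaks of replicate 2 overlapped 2 or more of replicate 1, and 11 of those 17 belonged to a shared site.

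The cluster with the highest summed mean fold, 91.8, was a run of 5 sites on chromosome 18, from 2729589 to 2737335. Fold enrichment, the authors' ratio of ChIP to local background at a summit, was 39.8 in replicate 1 and 27.5 in replicate 2 at its first site. The second site, 1354 bp further on, had 2.86-fold and 3.58-fold enrichment. The third, another 1529 bp on, had 32.2-fold and 34.4-fold. Strong and weak sites thus alternated within 2883 bp. The fourth site had 5.404-fold and 7.16-fold enrichment and the fifth 16.8-fold and 13.9-fold, so that the ranking of the sites differed between replicates for the 2 strongest alone. At these 2 strongest sites 411 and 415 fragments were piled up in replicate 1, where the highest value of the list was 468, and at the weak site between them 29 (exact Poisson 95% interval 19.4 to 41.6, counting error only).

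Of the 5 clusters with the highest summed mean fold, the other 4 held 2 or 3 sites. On chromosome 11, between 31763813 and 31769597, a site of 8.01-fold in replicate 1 and 6.95-fold in replicate 2 was followed by 2 strong ones. These had 31.1-fold and 29.0-fold enrichment in replicate 1, and 37.5-fold and 34.8-fold in replicate 2, at summits 2606 bp apart. The pair on chromosome 16, at 13048555 to 13051362, was strong at both sites in both lists. Its first site had 32.1-fold enrichment in replicate 1 and 26.6-fold in replicate 2, and its second, 1636 bp away, had 33.7-fold and 34.1-fold. The pair on chromosome 17, at 10221401 to 10224080, joined a site of 12.6-fold and 18.01-fold to one of 34.6-fold and 38.6-fold. That second site is among the 10 strongest shared sites of all. On chromosome 12, at 9188590 to 9190412, sites 1036 bp apart had 34.8-fold and 27.3-fold enrichment at the first, against 17.1-fold and 20.5-fold at the second. At both of these unequal pairs the stronger site was the same in both replicates, and the values of the sites did not overlap.

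The other clusters of 5 sites, singled out after their values were seen, were weaker. On chromosome 8, from 45733549 to 45741729, mean fold over both replicates ran from 2.67 to 12.1 over 7810 bp, the longest span of any cluster. Its weakest site stood on a recovered local background of 38.2 fragments in replicate 1 and 20 in replicate 2, against list medians of 9.85 and 7.16. The cluster on chromosome 15, from 5336886 to 5343707, had mean folds of 2.94 to 12.05, with its strongest site first and its last 2 summits 444 bp apart. Its last site had 2.16-fold enrichment in replicate 1 and 3.72-fold in replicate 2.

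The 8 clusters of 4 sites, also chosen after their values were seen, lay on chromosomes 4, 5, 6, 9, 12, 13 and 19, with 2 on chromosome 6. They spanned 3640 to 6056 bp. Their strongest sites had mean folds from 7.95, on chromosome 19 between 47142638 and 47148901, to 21.2, on chromosome 13 between 21180317 and 21186288. On chromosome 9, from 4122955 to 4127066, 4 sites of like strength followed each other, with mean folds of 8.39, 6.21, 8.82 and 6.70. On chromosome 12, from 38083823 to 38088475, a single site of 18.1-fold in replicate 1 and 19.3-fold in replicate 2 stood among 3 sites whose mean folds were 3.85 to 5.49.

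**Figure D2:**
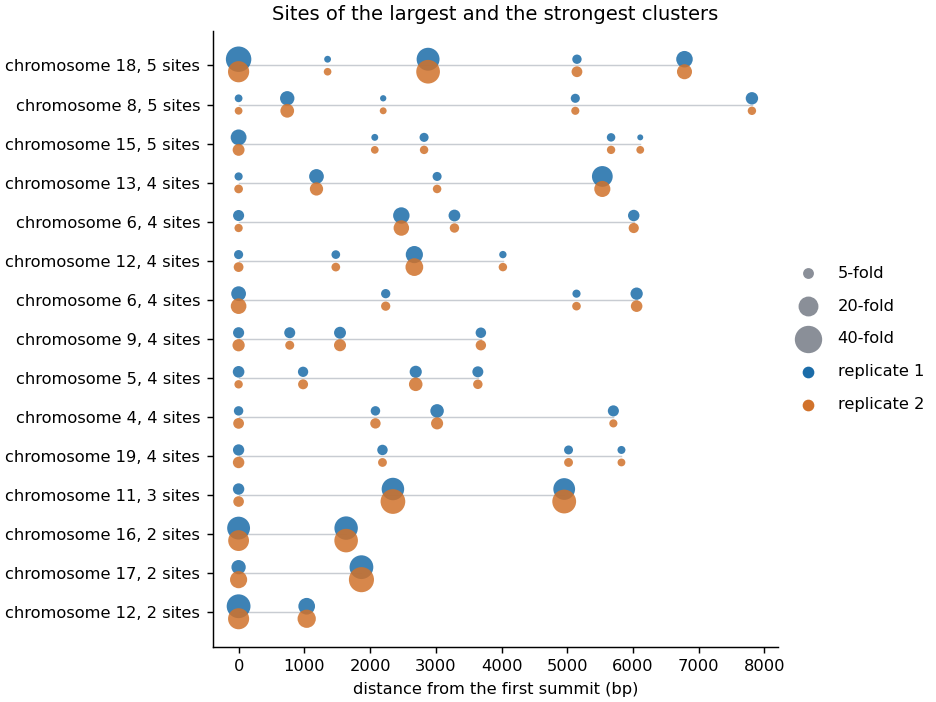
Sites of the clusters with 4 or 5 sites and of the 5 clusters with the highest summed mean fold, drawn at their distance (bp) from the first summit; circle area is fold enrichment in replicate 1 (upper, blue) and replicate 2 (lower, orange). Strong and weak sites stood side by side, as on chromosome 18, where mean folds of 33.6, 3.22 and 33.3 followed each other, while chromosome 16 paired 29.3 with 33.9.

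The closest neighbours were weak sites. The smallest distance, 376 bp, was on chromosome 10 at 9076408 to 9077138, where the first site had 4.61-fold enrichment in replicate 1 and 4.37-fold in replicate 2. The second had 2.62-fold and 3.26-fold. On chromosome 11, at 5174295 to 5175166, summits 412 bp apart had mean folds of 4.01 ± 0.076 and 3.75 ± 0.26 (SD, n = 2), and the first was the higher in both lists. On chromosome 12, at 5451732 to 5452490, summits 414 bp apart had 4.43 ± 0.41 and 3.63 ± 0.58 (SD, n = 2), again with the first the higher in both. By replicate 2's own summits the 3 distances were 383, 564 and 375 bp, so that the order among them did not hold between replicates.

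The most unequal neighbours stood on chromosome 18, in the cluster of 5 sites, and on chromosome 10. At 42176324 to 42177852 on chromosome 10, a site of 38.1-fold in replicate 1 and 31.7-fold in replicate 2 was followed 941 bp on by one of 3.32-fold and 3.44-fold. The ratio of their mean folds was 10.3, and those on either side of the weak site of chromosome 18 were 10.5 and 10.4. At the other extreme, the 3 neighbours with the strongest weaker site were the ones on chromosomes 11 and 16 described above and a pair on chromosome 2, at 43777379 to 43779774. There, summits 1559 bp apart had 25.6-fold and 23.3-fold enrichment at the first site and 23.8-fold and 20.4-fold at the second. The first was the stronger in both lists, but its range overlapped that of the second.

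Over all clusters, the strength of a site said little about that of its neighbour. Among the 867 neighbours, the Spearman correlation of fold enrichment was 0.050 in replicate 1 and −0.0059 in replicate 2, a weak value of changing sign that is given as a description only. Other measures were also weak but above 0 in both replicates. The Pearson correlation of log2 fold was 0.052 and 0.042, and the Spearman correlation of pileup was 0.069 and 0.025. Neighbours share a library and a stretch of chromatin and are not independent. Consecutive shared sites more than 3000 bp apart (n = 8919) had Spearman correlations of fold of −0.021 and −0.015, and the other measures were also below 0 there. By distance, the Spearman correlation of fold ran from −0.13 to 0.072 in replicate 1 and from −0.15 to 0.10 in replicate 2 over 5 ranges up to 3000 bp.

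The stronger of 2 clustered neighbours exceeded the weaker by a median of 1.68-fold in replicate 1 and 1.59-fold in replicate 2. For consecutive sites farther apart the medians were 1.697-fold and 1.58-fold. Ratios above 3 were found at 159 clustered neighbours (18.3%) in replicate 1 and 125 (14.4%) in replicate 2, against 17.9% and 14.7% of those farther apart. The site of lower coordinate was the stronger in 428 of the 867 cases in replicate 1 and likewise in 428 in replicate 2. Among the 74 chains of 3, the strongest site was the middle one in 19 in replicate 1 (25.7%, exact interval 16.2 to 37.2%) and in 18 in replicate 2. It was an outer one in 55 and 56. The middle is 1 of 3 positions, a share inside the exact intervals of replicate 1 and of replicate 2 (15.1 to 35.7%). No preference for outer sites was thus shown.

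Which of 2 neighbours was stronger was mostly the same in both lists, a comparison the choice of sites did not use. It was the same at 699 of 867 clustered neighbours, or 80.6% (exact interval 77.8 to 83.2%, taking neighbours as independent). Where mean folds differed by at least 2 times, the order was the same in 304 of 304, and from 1.5 to 2 times in 173 of 173. With a ratio below 1.2 it was the same in 61 of 190, so for most of these the 2 replicates gave no common order. The ratio came from the same values, so high shares at high ratios and low shares near 1 follow in part from how these classes were made. Consecutive sites farther apart had the same order in 81.8% (81.0 to 82.6%). By class it was the same in 99.9% of them at 2 times or more, 98.5% from 1.5 to 2 times and 35.1% below 1.2. These shares were close to those of clustered neighbours.

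**Figure D3:**
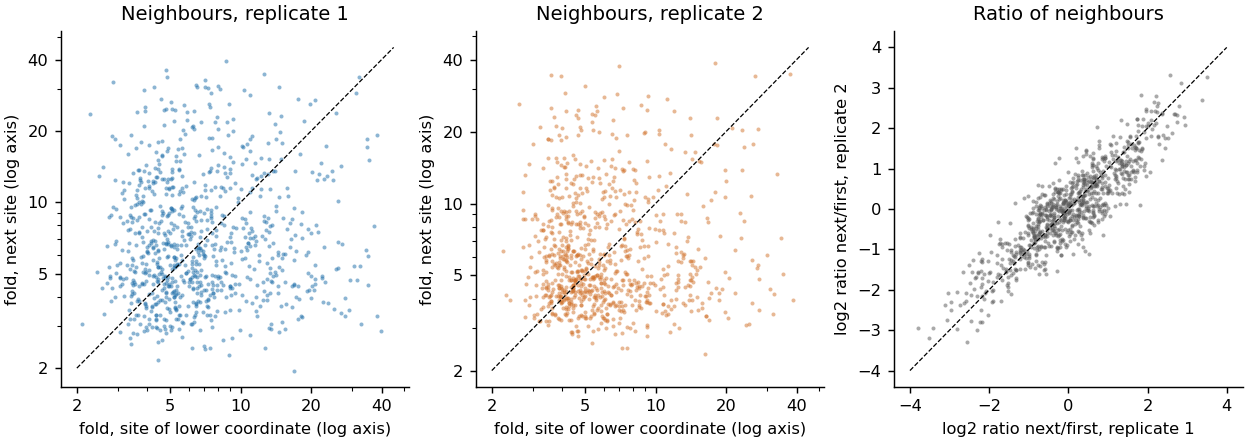
Fold enrichment (log axes) of each clustered site against that of the next site in its cluster, for replicates 1 and 2, and the log2 ratio of each pair of neighbours in replicate 2 against replicate 1; each point is 1 of 867 neighbours and dashed lines mark equality. Fold of neighbours showed a Spearman correlation of 0.050 and −0.0059, whereas the ratio between neighbours had a rank correlation of 0.86 between the replicates.

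By mean fold, strong sites stood side by side about as often in clusters as among consecutive sites 3000 to 10000 bp apart. Set against all consecutive sites more than 3000 bp apart, replicate by replicate, they did so more often in clusters, as given below. A mean fold of at least 10 was reached by 381 clustered sites (23.3%), where 20.7% of all shared sites reached it (exact interval of the clustered share 21.3 to 25.4%). Both sites reached it at 50 clustered neighbours (5.77%), at distances from 726 bp upward with a median of 1570.5 bp. Among consecutive sites over 3000 and up to 5000 bp apart the share was 5.78%, and from 5000 to 10000 bp it was 5.97%. Of the 768 clusters, 326 (42.4%) held at least 1 such site. A cluster has 2 or more sites, so this share cannot be set against the shares per site, and no baseline for it was computed. In replicate 1, 28% of the clustered sites beside a site of at least 10-fold were themselves at least 10-fold, against 25.2% of those beside a weaker one. In replicate 2 the shares were 22.6% and 17.98%. For consecutive sites more than 3000 bp apart they ran the other way, at 22.5% and 24.4% in replicate 1 and 15.98% and 17.96% in replicate 2. Beside a strong site, the share of strong sites was thus higher in clusters than farther apart in both lists. The difference between these patterns was not tested. Strength did vary with very short distances: at most 750 bp apart, sites had a median mean fold of 4.68 and 8.46% reached 10-fold. At 750 to 1000 bp the median was 6.27 and 23.3% reached it, and from 1000 to 3000 bp medians were 5.76 to 5.92. The narrower peaks of the closest sites moved with this, and their part in it was not tested.

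Clustered sites had a median strength close to that of the others. Median fold enrichment was 6.29 at clustered sites and 6.12 at the 8171 other shared sites in replicate 1, and 5.45 and 5.34 in replicate 2. On the log2 scale the medians differed by 0.039 and 0.028, a mean of 0.033 ± 0.0073 (SD, n = 2). With 2 lists the smallest two-sided p an exact permutation test can give is 0.5, so none is given, and peaks within a list are not replicates. The difference was −0.026 among all peaks of replicate 1's list alone and −0.0017 in replicate 2's, and −0.094 with a limit of 1000 bp, so its direction did not hold under these settings. Against the 2137 sites whose nearest neighbour was more than 3000 and at most 10000 bp away it was 0.013 ± 0.0046 (SD, n = 2).

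Enrichment of at least 10-fold was reached by 434 clustered sites (26.5%, exact interval 24.4 to 28.8%) in replicate 1, where 24.1% of all shared sites reached it. In replicate 2 it was 314 (19.2%, 17.3 to 21.2%) against 17.7% of all, and in both replicates 295 (18.04%, exact interval 16.21 to 19.99%) against 16.4%. The interval excluded the overall share in replicate 1 and included it in replicate 2 and for both together. These intervals take sites as independent and the overall share includes the clustered sites, so this is not a test of a difference. Turned around, the clustered share was 16.6% among the weakest 10% of shared sites by mean fold, 14.7% in the fifth step of 10% and 19.8% (17.3 to 22.4%) among the strongest 10%. Among the 100 strongest sites 23 were clustered (exact interval 15.2 to 32.5%), and among the 10 strongest 2 (2.52 to 55.6%). Both intervals include the 16.7% over all shared sites. The 2 among the 10 strongest were the site of chromosome 17 above and one on chromosome 3, at 37825198 to 37826320. The latter had a mean fold of 36.8 ± 2.64 (SD, n = 2) and its nearest neighbour 2090 bp away.

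**Figure D4:**
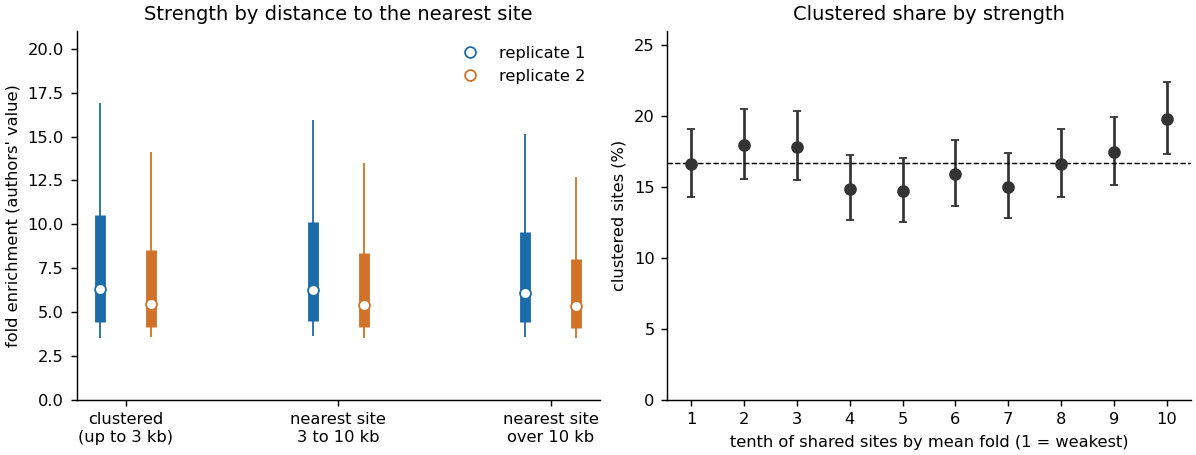
Left, fold enrichment in each replicate for clustered sites and for sites whose nearest neighbour is 3000 to 10000 bp or over 10000 bp away (circle, median; thick bar, 25 to 75%; thin line, 10 to 90% quantiles). Right, percent of shared sites that are clustered in each step of 10% by mean fold, with exact 95% intervals and the share over all sites, 16.7%, dashed; it ranged from 14.7 to 19.8%.

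At the limit itself, sites just inside and just outside were alike in strength. The 93 sites whose nearest summit lay more than 2750 and at most 3000 bp away had median folds of 6.33 in replicate 1 and 5.93 in replicate 2. The 82 sites at more than 3000 and at most 3250 bp had 6.69 and 5.69. The last pair inside, on chromosome 3 at 43834488 to 43837946, had summits exactly 3000 bp apart. The first outside, on chromosome 13 with peaks at 20613163 to 20613618 and 20615972 to 20616646, had summits 3005 bp apart and mean folds of 3.79 and 24.0.

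Distances were also measured in the second replicate. Because a site needed overlapping peaks in both lists and neighbours were chosen by replicate 1's summits, replicate 2's distances had to be close, and they are given as a description. Measured between replicate 2's own summits, the median distance of the same 867 neighbours was again 1593 bp. The 2 measures of a distance differed by a median of 41 bp and by at most 109 bp in 90% of cases. By replicate 2's summits 860 neighbours stayed within 3000 bp and 7 did not, the longest distance being 3091 bp. The summit of a clustered site lay a median of 25 bp from its counterpart in the other list, as it did at the other shared sites. Fold enrichment ranked clustered sites in the replicates with a Spearman correlation of 0.84, and other shared sites with 0.81.

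Peaks without a shared counterpart were also found near clusters. Replicate 1 had 5968 such peaks on chromosomes and replicate 2 had 1088. A peak of this kind lay within 3000 bp of 169 clustered sites (10.3%, exact interval 8.90 to 11.9%) in replicate 1 and of 58 (3.55%, 2.70 to 4.56%) in replicate 2. For the other shared sites the shares were 10.8% and 2.14% (1.84 to 2.48%). Local background was alike: its median was 10.1 fragments at clustered sites and 10.3 at the others in replicate 1, and 7.16 and 7.18 in replicate 2. A background over 2 times the list's median was found at 3 of the 1635 clustered sites in replicate 1 and at 10 in replicate 2, against 19 and 36 of the 8171 others. Taking either replicate, it was 12 clustered sites in 11 clusters.

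Clusters were found on all 20 chromosomes. The clustered share ranged from 11.1% on chromosome 16 (exact interval 7.86 to 15.1%), where 35 of 315 shared sites were clustered, to 20.5% on chromosome 11 (17.1 to 24.2%), where it was 106 of 518. Chromosomes 6 and 13 had the most clusters of 3 or more sites, 9 each, and chromosome 7 had 0 among its 32 clusters. The interval included the overall 16.7% on 17 of the 20 chromosomes. The exceptions were chromosomes 6 and 11 above it and chromosome 16 below. A site is clustered only together with a neighbour, so these intervals, which take sites as independent, are too narrow. The 20 intervals were also read without allowance for their number, so a difference of these chromosomes from the rest was not shown.

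Clustered sites and the others had nearly equal shares near the chromosome ends. The outer 25% at either end held 1278 of them, or 78.2% (76.1 to 80.1%), and 78.0% (77.1 to 78.9%) of the other shared sites. Sites whose nearest neighbour was more than 3000 and at most 10000 bp away had 84.6% (83.0 to 86.1%) in these outer parts. The 6034 sites with none within 10000 bp had 75.7% (74.6 to 76.8%), so the clustered share lay between those of these classes. In the outer parts 16.7% of shared sites were clustered and in the middle 16.6% (15.0 to 18.2%). The clustered share rose with the number of shared sites in the same 1 Mb, from 9.66% (7.76 to 11.8%) with 1 to 5 sites to 24.0% (21.4 to 26.7%) with 31 to 44. Each count includes the site and its cluster, so some rise follows from the counting itself.

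**Figure D5:**
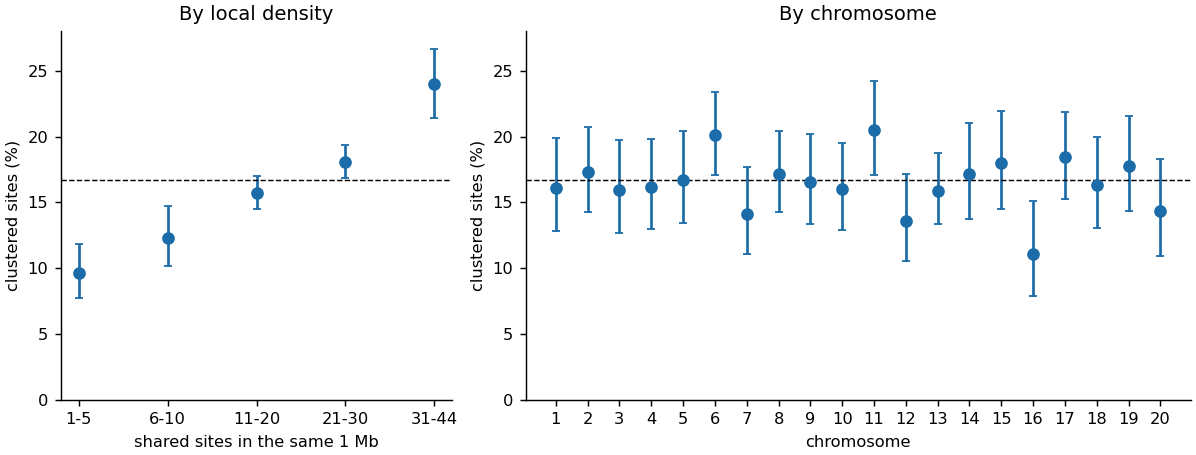
Percent of shared sites that are clustered, with exact 95% intervals, by the number of shared sites in the same 1 Mb (left) and by chromosome (right); the dashed line is the share over all sites, 16.7%. The share rose from 9.66% in the sparsest to 24.0% in the densest stretches and ranged from 11.1 to 20.5% between chromosomes.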

How the data were processed

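ChIP-seq of early maturation soybean embryos gave 2 ChIP and 2 input samples. Per the submitters' processing notes, Bowtie 0.12.7 and MACS2 were used. Filters, threshold, genome build and the version of MACS2 are not given in the sources used. Each ChIP replicate had its own narrowPeak list, deposited by the authors without pooling. Per the file format, the deposited fold is a ratio, ChIP over local background at a summit, and the other deposited values are −log10 p and −log10 q. Except at 1 peak, the deposited score equalled the whole part of 10 times −log10 q.

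Peaks on chromosomes were paired one to one by overlap of at least 50% of both, the largest overlap first, and replicate 1's summit stood for a site. Sites at most 3000 bp apart were chained. Pileup and background at each summit were solved from fold, (pileup + 1)/(background + 1), and −log10 p as a Poisson tail. Whole fragment numbers resulted for 100% of peaks (tolerance 0.003 in −log10 p), at a ChIP scale of 1 in replicate 1 and 0.846 in replicate 2. Printed pileups are before scaling and backgrounds are on the lists' scale. Pairing, chaining and recovery returned 100% of the simulated cases. For pairing, the simulated second list was a slightly shifted copy of the first, without unpaired or split peaks. Planted clusters stood far apart, and the simulated fold and p came from the same formulas that were then solved. The simulations thus checked that the steps run as written. They did not check how well the real lists pair or whether those formulas hold for them. Intervals are exact and cover counting error only, since sites are taken as independent and PCR copies are not separate molecules. Clustered sites come at least 2 together, so the intervals of a clustered share are too narrow.

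Sites and lists were chosen with earlier results of these data known. Regions were named by rule: clusters of at least 6 sites (0 found), the 5 with the highest summed mean fold, the 3 closest, most unequal and strongest neighbours, and the sites nearest the limit. The last peak end stood for chromosome length. The reference gene table, of another assembly, was not used. The tools were scipy 1.17.1, pandas 2.3.3, numpy 2.4.6 and matplotlib 3.10.9 under Python 3.11.15. Alternatives covered the distance limit, overlap, peak threshold, summit, strength measure and single lists.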

Additional observations from a re-analysis of the deposited data

How the results depend on the processing

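Alternatives using pileup or leaving out sites on a high background were chosen after the data were seen; the others were planned. No paired analysis was possible because only ChIP lists were analysed, 1 per replicate number. The cause of each change below was not tested, except that a longer limit admits more sites by construction.

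At distance limits of 1000, 2000, 5000 and 10000 bp the clustered share was 3.38%, 11.5%, 24.0% and 38.5%, and the median spacing 804, 1277, 2163.5 and 3962 bp. There were 331 clustered sites in 163 clusters at 1000 bp and 3772 in 1619 at 10000 bp, and then 81.8% lay in the outer parts. With −log10 q of at least 10 there were 878 clustered sites (12.4%) in 418 clusters, and with at least 4-fold enrichment 829 (11.98%) in 393. Overlap of at least 1 bp gave 17.7%. Replicate 2's list alone and replicate 1's alone gave 2160 to 4054 clustered sites (19.8 to 25.7%), 995 to 1848 clusters, median spacings of 1492 to 1518.5 bp and 79.6 to 80.3% in the outer parts.

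The log2 difference in strength, 0.033, was −0.094 at 1000 bp, 0.026 at 2000 bp, 0.044 with the q threshold, 0.045 at 4-fold, 0.051 by −log10 q, 0.013 against sites 3000 to 10000 bp from a neighbour, 0.010 by pileup and −0.026 to −0.0017 in single lists. It was thus above 0 in 11 of 14 alternatives. These draw on the same lists, so the count is no support for a direction. By pileup the SD over both replicates was 0.015, larger than the difference itself. The mean correlation between neighbours, 0.022, was 0.074 at 4-fold, and −0.011 to 0.0012 in single lists. The stronger neighbour was the same in both replicates in 85.5% by −log10 q and 89.7% by pileup. Without sites on a high background there were 1614 clustered sites in 759 clusters. Whether depth limits the ordering of neighbours of like strength was not tested.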
